A study of Oryza sativa with 12 samples.

Results

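The brightest transcripts of wild-type rice seeds were followed across 4 strains. All probe sets with exactly 1 annotated gene were ordered by their mean log2 signal over the 3 wild-type arrays, with 1 probe set per gene. The first 200 of 17905 genes were taken, and 11 of these, in gene families the rule leaves out (glutelin A and B, metallothionein, disulfide isomerase-like and ascorbate peroxidase genes and the rubisco activase gene RCAA1), were then dropped. The remaining 189 genes are called the members here. The members were selected on their wild-type signal, so their height in wild type is not a finding, and their differences from wild type are given without a test.

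Expression was measured in developing seeds with an Affymetrix rice array, on which each gene is read by at least 1 set of short probes. There were 12 arrays in 4 groups of 3. They came from the lines HFL1, 35S-15 and GR14, whose seed lysine is labelled high, and from wild-type Wuxiangjiang9 seeds (WT), labelled as normal in lysine. Plants of all groups grew in a field, the age is 10 days after flowering in the sample labels and 15 in the design text, and the labels name no transgene for any line. HFL1 is known from earlier work to combine the changes of GR14 and 35S-15. Whether the arrays of one strain had separate plants behind them is not stated, so each p-value reflects array-to-array spread that may be technical in origin.

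In a filling cereal grain the starchy endosperm makes storage proteins on the endoplasmic reticulum and starch in amyloplasts. It is fed by sucrose that leaves the maternal tissue through sugar carriers and is cleaved for glycolysis and ADP-glucose synthesis. The embryo and the aleurone layer add late-embryogenesis proteins, and the outer pericarp stays green and photosynthetic at this stage. The labelled tissue is seeds, a mixture of these cell types, in which fewer cells of a type and less RNA per cell cannot be told apart.

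A bright probe set is not necessarily an abundant transcript, because probes differ in how well they bind. The ordering that chose the members, the summed signals and words such as brighter or dimmer compare signals, not amounts of transcript. Values are log2 of the MAS5 signal. The members' WT means ran from 14.10 to 15.52 with a median of 14.50, against a median of 9.38 over all 17905 genes. The last 3 inside the limit were LOC4337447 (14.10), LOC4350359 (14.10) and ADF4, an actin-depolymerizing factor (14.0998). The first 3 outside were LOC4332715 (14.0957), LOC4329508 (14.0942) and LOC4324441 (14.0853). Of the members, 67 carried an informative gene name and 122 only a LOC identifier, to which no role is given here. Members were placed in role lists by patterns in their gene symbols and synonyms. The counts by role below are of such matches and can miss members under other names. All 189 passed the filter on dim probe sets that left 31792 for testing. Of the 189, 47 are read by probe sets ending in _x_at or _s_at, which can bind several related transcripts, among them those of RAG2, PROLM25, HSP81-3 and LOC4326757.

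The members held 10.8 ± 0.318% of the summed signal in HFL1, 11.6 ± 1.08% in 35S-15 and 10.8 ± 0.658% in GR14, against 10.6 ± 0.381% in WT (SD, n = 3 each). Several arrays stood apart within their groups. In 35S-15 array 3, 169 of 189 members were above the mean of the other 35S-15 arrays, by a median of 0.26, while the median over all tested probe sets was -0.00064. After quantile normalization 88 of 189 were above it, with a median of -0.01. In 35S-15 array 2 only 22 of 189 were above the mean of the others (median -0.26, tested probe sets 0.03), and in GR14 array 3 39 of 189 (median -0.18, tested probe sets 0.06). The 3' minus 5' log2 signal of control probe sets, which widens as RNA degrades, was 5.65 in GR14 array 3, against 3.90 to 4.88 in the other 11 arrays, for actin. For GAPDH it was 4.20 in GR14 array 3, against 1.95 to 3.33 in the other 11 arrays, and for ubiquitin 0.14 in GR14 array 3, against -0.20 to 0.04 in the other 11 arrays. GR14 array 3 was thus the highest for these 3 controls, but for cyclophilin it was 0.88 in GR14 array 3, against 0.70 to 1.32 in the other 11 arrays, and for EF1a -2.29 in GR14 array 3, against -2.22 to 0.88 in the other 11 arrays, the lowest. The part of RNA quality in the differences from GR14 was not tested. Of the cell-type markers, WX1, Sbe1 and PROLM25 for the endosperm are all members. The summed signal of 6 green pericarp markers, of which CAB2R and RCABP89 are members and RBCS1 was below the array median, was 74337 to 87195 in HFL1, 74788 to 103750 in 35S-15 and 48136 to 51434 in GR14, against 63635 to 67304 in WT. GR14 was the lowest group and did not overlap any other, but RCABP89 made up most of its gap from WT. Without RCABP89 the sum was 49771 to 59294 in HFL1, 52895 to 71756 in 35S-15 and 43562 to 45096 in GR14, against 45300 to 46599 in WT. Without CAB2R as well it was 12317 to 14158 in HFL1, 12122 to 13425 in 35S-15 and 6813 to 8597 in GR14. WT then read 9919 to 14055, and GR14 still overlapped no other group. The sum of 6 embryo and aleurone markers, none of them members, was 8078 to 34728 in HFL1, 33662 to 60654 in 35S-15 and 24772 to 72744 in GR14, against 9211 to 68168 in WT. In HFL1, in GR14 and in WT, array 3 had the lowest sum of its group. The same arrays were lowest for the summed endosperm markers, at 107112 in HFL1, 112142 in GR14 and 87614.5 in WT. In 35S-15, array 3 had the highest sum for both marker sets, 176546 for endosperm and 60654 for embryo and aleurone.

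The storage proteins among the members were RAG2 and RA5, albumins of the α-amylase/trypsin inhibitor family known as seed allergens, and PROLM25, a prolamin deposited in protein bodies. RAG2 read 15.42, 15.59 and 15.38 in HFL1 seeds, 15.60, 15.50 and 16.11 in 35S-15 seeds and 15.62, 15.85 and 15.43 in GR14 seeds, against 15.44, 15.31 and 14.95 in WT seeds. PROLM25 read 15.12, 15.55 and 14.95 in HFL1 seeds, 15.43, 15.41 and 15.97 in 35S-15 seeds and 15.51, 15.72 and 15.07 in GR14 seeds, against 15.22, 15.25 and 14.05 in WT seeds. RA5 read 15.08, 15.45 and 14.90 in HFL1 seeds, 15.45, 15.19 and 15.87 in 35S-15 seeds and 15.51, 15.67 and 15.24 in GR14 seeds, against 15.27, 14.77 and 14.51 in WT seeds. For all 3 the highest value was in 35S-15 array 3 and the lowest in WT array 3. GLUD1, a D-type glutelin that the rule keeps, read 14.91, 15.05 and 14.74 in HFL1 seeds, 15.04, 14.69 and 15.41 in 35S-15 seeds and 14.94, 15.04 and 14.14 in GR14 seeds, against 14.69, 15.03 and 14.63 in WT seeds. Its groups overlapped one another. Neither of the tested line comparisons with GR14 passed for any of RAG2, RA5 and PROLM25, nor for any of the 10 other tested storage protein genes in the list.

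Starch and sucrose metabolism was represented by 5 members. PPDKB, a pyruvate orthophosphate dikinase, stood among the 10 brightest and read 15.33, 15.37 and 15.30 in HFL1 seeds, 15.49, 15.16 and 15.63 in 35S-15 seeds and 15.16, 15.48 and 15.20 in GR14 seeds, against 15.31, 15.38 and 15.19 in WT seeds. WX1, the granule-bound starch synthase that makes amylose, read 15.24, 15.56 and 15.20 in HFL1 seeds, 15.58, 15.20 and 15.64 in 35S-15 seeds and 15.51, 15.54 and 15.38 in GR14 seeds, against 15.28, 15.31 and 15.10 in WT seeds. Sbe1, a starch-branching enzyme, read 15.21, 15.50 and 15.21 in HFL1 seeds, 15.47, 15.19 and 15.91 in 35S-15 seeds and 15.44, 15.59 and 15.10 in GR14 seeds, against 15.30, 15.21 and 15.12 in WT seeds. Each of these 3 enzymes stayed within 1 log2 unit over all 12 arrays. AGPS2, a small subunit of ADP-glucose pyrophosphorylase, read 14.84, 15.06 and 14.82 in HFL1 seeds, 14.90, 14.84 and 15.33 in 35S-15 seeds and 14.89, 15.16 and 14.53 in GR14 seeds, against 14.71, 14.55 and 14.58 in WT seeds, and every HFL1 and 35S-15 array was above every WT array. SUS3, a sucrose synthase, averaged 14.63 ± 0.10 in HFL1, 14.55 ± 0.08 in 35S-15, 14.41 ± 0.24 in GR14 and 14.34 ± 0.23 in WT (SD, n = 3 each). None of the 5 passed either test against GR14. Of the 11 other tested starch and sucrose genes 1 was higher and 1 lower in HFL1 than in GR14, and 1 was higher and 0 lower in 35S-15.

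Membrane transport was represented by 6 members: the sugar efflux carrier SWEET11 and 5 water channels. SWEET11, which is known to release sucrose toward the filling endosperm, read 15.20, 15.24 and 15.10 in HFL1 seeds, 15.35, 15.29 and 15.51 in 35S-15 seeds and 15.23, 15.45 and 15.10 in GR14 seeds, against 15.10, 15.19 and 15.12 in WT seeds. The tonoplast channel TIP3-1, a seed type found on protein storage vacuoles, read 15.18, 15.44 and 14.99 in HFL1 seeds, 15.42, 15.14 and 15.82 in 35S-15 seeds and 15.62, 15.52 and 15.23 in GR14 seeds, against 15.44, 15.48 and 15.08 in WT seeds. Neither passed a test between lines. The plasma membrane channel PIP1-2 did and is described with those tests. Its relative PIP2-1 averaged 14.69 ± 0.13 in HFL1, 14.88 ± 0.26 in 35S-15, 14.57 ± 0.20 in GR14 and 14.59 ± 0.06 in WT (SD, n = 3 each). The tonoplast channel TIP1-1 averaged 14.53 ± 0.24 in HFL1, 14.92 ± 0.31 in 35S-15, 14.42 ± 0.39 in GR14 and 14.53 ± 0.16 in WT, and TIP2-2 averaged 14.56 ± 0.19 in HFL1, 14.54 ± 0.30 in 35S-15, 14.34 ± 0.16 in GR14 and 14.33 ± 0.24 in WT (SD, n = 3 each). Neither passed a test between lines with its brightest probe set, but another, dimmer TIP1-1 probe set did in 35S-15 minus GR14 (0.77, limma adjusted p = 0.0240). Of the 124 other tested probe sets of members, 2 passed where the member did not, the other being one of ROMT-17 in 35S-15 minus GR14 (-0.73, limma adjusted p = 0.00798, against 0.20 for the member's own). HAK5, a potassium transporter outside the list, read 13.77, 14.16 and 13.86 in HFL1 seeds, 13.75, 13.98 and 14.51 in 35S-15 seeds and 14.02, 14.18 and 13.97 in GR14 seeds, against 14.27, 14.57 and 14.28 in WT seeds, and all 3 HFL1 arrays and all 3 GR14 arrays were below all 3 WT arrays.

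The translation list held 7 members. They were the ribosomal protein genes RPS21, RPS27AA, RPL39B, RPS3A and RPL7A-1 and the elongation factors REFA1 and EF-1-beta. RPS21 read 15.08, 15.14 and 15.10 in HFL1 seeds, 15.29, 15.06 and 15.50 in 35S-15 seeds and 15.21, 15.17 and 15.04 in GR14 seeds, against 15.04, 15.17 and 14.88 in WT seeds. REFA1, an elongation factor 1-alpha, read 14.88, 14.74 and 14.99 in HFL1 seeds, 14.96, 14.75 and 15.17 in 35S-15 seeds and 14.91, 15.04 and 14.73 in GR14 seeds, against 14.72, 15.02 and 14.81 in WT seeds. EF-1-beta, its exchange factor subunit, read 14.21, 13.97 and 14.37 in HFL1 seeds, 14.30, 13.96 and 14.19 in 35S-15 seeds and 13.93, 13.68 and 13.96 in GR14 seeds, against 14.35, 14.31 and 14.43 in WT seeds. GR14 was lowest for EF-1-beta, and its arrays lay wholly below those of WT. None of the 7 passed a test between lines. Of the 43 other tested translation genes 0 were higher and 1 was lower in each of HFL1 and 35S-15 than in GR14, with medians of 0.11 and 0.14.

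Protein folding was represented by BIP1, the Hsp70 chaperone of the endoplasmic reticulum lumen, CRO1, a calreticulin, and the cytosolic Hsp90 genes HSP81-2 and HSP81-3. BIP1 read 14.58, 15.20 and 14.49 in HFL1 seeds, 14.99, 14.80 and 15.52 in 35S-15 seeds and 14.55, 13.98 and 13.78 in GR14 seeds, against 14.84, 15.30 and 15.08 in WT seeds. HSP81-3 read 15.16, 15.25 and 14.82 in HFL1 seeds, 15.13, 15.02 and 15.85 in 35S-15 seeds and 15.12, 15.39 and 15.12 in GR14 seeds, against 15.24, 14.90 and 14.78 in WT seeds. CRO1 read 13.86, 14.37 and 13.89 in HFL1 seeds, 13.86, 14.25 and 14.36 in 35S-15 seeds and 13.81, 13.47 and 13.52 in GR14 seeds, against 13.80, 14.22 and 14.34 in WT seeds. GR14 was the lowest group mean for BIP1 and CRO1. HSP81-2 was among the least variable of the folding members, at 14.42 ± 0.04 in HFL1, 14.33 ± 0.06 in 35S-15, 14.40 ± 0.08 in GR14 and 14.38 ± 0.08 in WT (SD, n = 3 each).

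Photosynthesis was represented by CAB2R and RCABP89, chlorophyll a/b-binding proteins of light harvesting, and PETE, the electron carrier plastocyanin. CAB2R read 15.20, 15.46 and 15.19 in HFL1 seeds, 15.32, 15.35 and 15.85 in 35S-15 seeds and 15.19, 15.22 and 15.09 in GR14 seeds, against 15.11, 14.99 and 15.14 in WT seeds. PETE read 14.87, 15.19 and 14.79 in HFL1 seeds, 14.83, 15.02 and 15.33 in 35S-15 seeds and 14.70, 14.68 and 14.55 in GR14 seeds, against 14.56, 14.62 and 14.66 in WT seeds. RCABP89 is described with the line comparisons. CAB2R, RCABP89 and PETE each lay wholly above WT in HFL1 and in 35S-15, with no test.

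Glycolysis and related metabolism held GAPC1 and GAPC3, cytosolic glyceraldehyde-3-phosphate dehydrogenases, TPI, triose-phosphate isomerase, Eno1, enolase, FBA3, an aldolase, and SAM1, an S-adenosylmethionine synthetase. GAPC1 averaged 15.11 ± 0.11 in HFL1, 15.26 ± 0.22 in 35S-15, 14.98 ± 0.17 in GR14 and 15.03 ± 0.06 in WT, and TPI averaged 14.90 ± 0.06 in HFL1, 14.95 ± 0.19 in 35S-15, 14.90 ± 0.13 in GR14 and 14.84 ± 0.06 in WT (SD, n = 3 each). For TPI the range of the 4 group means, 0.10, was below its pooled SD within groups, 0.12. No member of this list passed a test between lines, while 2 of the 32 others were higher and 2 lower in HFL1 than in GR14, and 2 were higher and 1 lower in 35S-15.

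The redox and defence lists held GLYI-11, a glyoxalase, GRXC6, a glutaredoxin, CAT-A, a catalase, GSTF2, a glutathione transferase, PBZ1, a pathogenesis-related protein, and the lipid transfer proteins LTP-2 and LTP110-A. PBZ1 averaged 15.19 ± 0.18 in HFL1, 15.33 ± 0.16 in 35S-15, 15.21 ± 0.18 in GR14 and 15.06 ± 0.15 in WT (SD, n = 3 each), and GRXC6 averaged 14.26 ± 0.30 in HFL1, 14.64 ± 0.20 in 35S-15, 14.69 ± 0.26 in GR14 and 14.35 ± 0.31 in WT. LTP110-A lay wholly above WT in HFL1, at 14.47, 14.63 and 14.54 against 14.09, 14.22 and 14.45. The ubiquitin list held UBQ1, a ubiquitin gene, and, through the pattern of their symbols, OSK3 and OSK4, which are SnRK1-type protein kinases. UBQ1 averaged 14.58 ± 0.07 in HFL1, 14.66 ± 0.18 in 35S-15, 14.55 ± 0.09 in GR14 and 14.53 ± 0.26 in WT (SD, n = 3 each). The cytoskeleton and signalling list held TCTP, the translationally controlled tumour protein, TubA and TUBB5, tubulins, GF14F, a 14-3-3 protein, and ADF4. TCTP read 15.36, 15.44 and 15.33 in HFL1 seeds, 15.14, 15.07 and 15.66 in 35S-15 seeds and 15.24, 15.41 and 15.31 in GR14 seeds, against 15.30, 15.26 and 15.15 in WT seeds. Its values stayed within 1 log2 unit over the 12 arrays. None of the 8 tested genes with a histone or high mobility group symbol was a member. Members known only by a LOC identifier could not be checked for this.

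**Figure D1:**
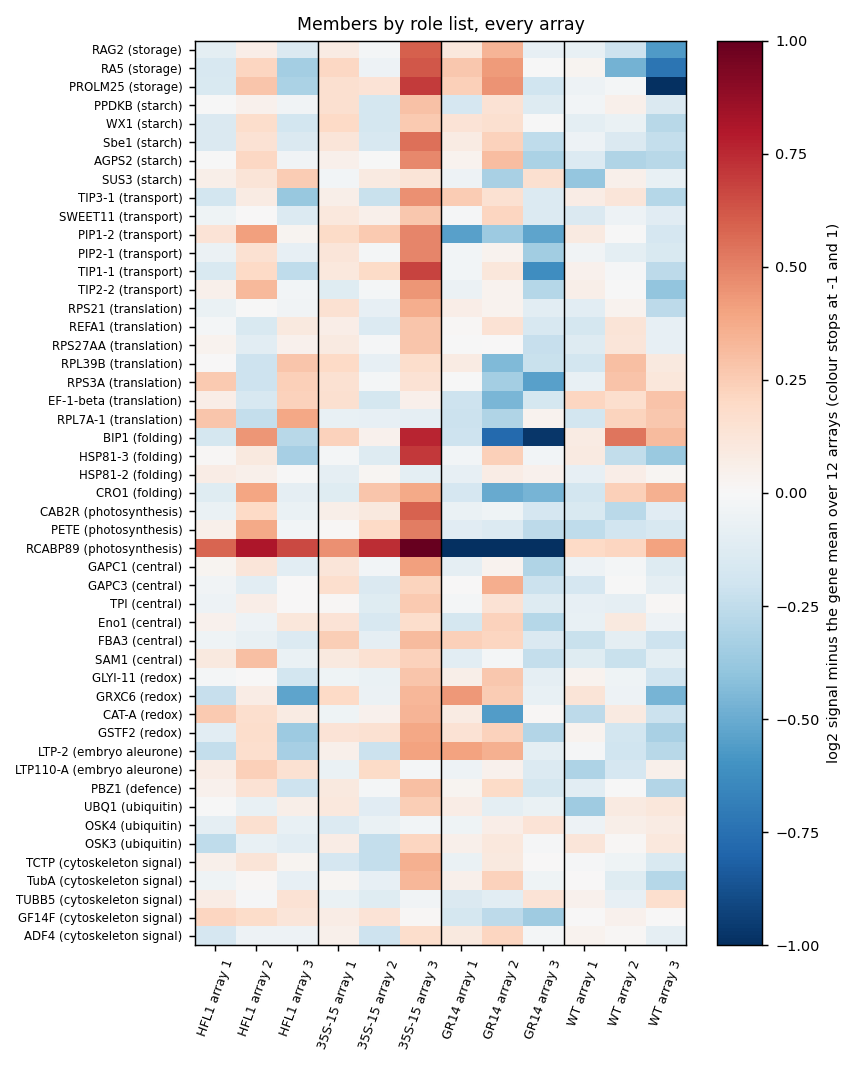
Log2 signal of the 49 members that fell in a role list, 1 row each, minus the gene's mean over the 12 arrays; columns are arrays of HFL1, 35S-15, GR14 and WT, and colours stop at -1 and 1. Most rows are pale; RCABP89 is dark blue in all 3 GR14 arrays, and many rows are redder in 35S-15 array 3 than in the other 35S-15 arrays.

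Among the brightest members of all, TIP3-1, PPDKB, TCTP and RAG2 were described with their role lists above. The others were GER3, which fell in no role list, and members known here only by a LOC identifier. LOC9270227 read 15.64, 15.79 and 15.69 in HFL1 seeds, 15.73, 15.66 and 16.25 in 35S-15 seeds and 15.69, 16.01 and 15.54 in GR14 seeds, against 15.52, 15.63 and 15.40 in WT seeds. LOC4343901 read 15.26, 15.30 and 15.41 in HFL1 seeds, 15.47, 15.18 and 15.65 in 35S-15 seeds and 15.22, 15.16 and 15.32 in GR14 seeds, against 15.44, 15.60 and 15.51 in WT seeds. GER3 read 15.51, 15.75 and 15.47 in HFL1 seeds, 15.73, 15.49 and 16.17 in 35S-15 seeds and 15.73, 15.96 and 15.52 in GR14 seeds, against 15.53, 15.52 and 15.30 in WT seeds. None of the 3 passed a test between lines. LOC4352868, LOC9266083 and LOC4329275 did not either, and their 4 group means ranged over 0.44, 0.11 and 0.33. A total of 18 named members fell in no list, among them RINO1, the inositol phosphate synthase that begins phytate synthesis, at 14.51 ± 0.13 in HFL1, 14.56 ± 0.29 in 35S-15, 14.35 ± 0.10 in GR14 and 14.54 ± 0.24 in WT (SD, n = 3 each). R1C-Prx, a peroxiredoxin known from the aleurone and embryo of cereals, varied widely within groups, as shown further on.

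The members varied little between strains. The range of the 4 group means had a median of 0.294 over the members and 0.538 over all tested probe sets, and it was above 1 log2 unit for 6 members (3.17%) against 22.0% of tested probe sets. Among the 3 lines alone, whose arrays did not choose the members, the range was above 1 for 6 members (3.17%) against 17.3%. The pooled SD within groups had a median of 0.178 over the members and 0.337 over tested probe sets, so the arrays of a strain also differed less for the members. The smallest ranges were those of LOC4333306 (0.03), LOC4340155 (0.07), LOC4328484 (0.08) and LOC4347142 (0.08), each below its own pooled SD. LOC4333306 read 14.51, 14.18 and 14.43 in HFL1 seeds, 14.36, 14.21 and 14.65 in 35S-15 seeds and 14.28, 14.46 and 14.40 in GR14 seeds, against 14.42, 14.38 and 14.40 in WT seeds. The 6 members with a range above 1 were LOC4326757, RCABP89, LOC4344574, LOC4350789, LOC4342395 and LOC4337447.

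**Figure D2:**
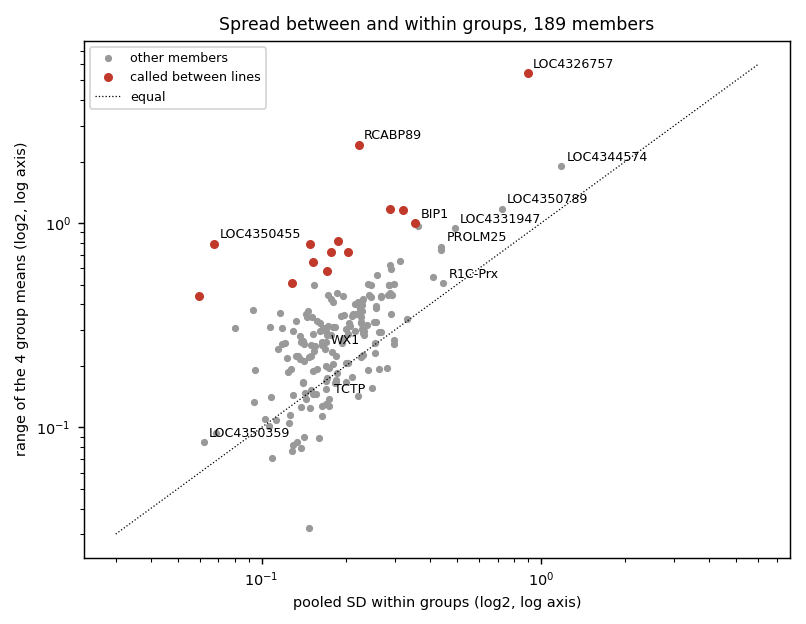
Range of the 4 group means against the pooled SD within groups for the 189 members, both in log2 units on log axes, with a dotted line where the 2 are equal and red points for members that passed a test between lines. LOC4326757 and RCABP89 have the largest ranges, and LOC4344574 combines a range of 1.90 with the largest pooled SD, 1.18.

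Repeating the choice in each line gave largely the same genes. Of the 189 genes so chosen in HFL1, 168 were members, which is 88.9% of either list. In 35S-15 it was 167 of 190, or 87.9% of that list and 88.4% of the members. In GR14 it was 148 of 191, or 77.5% of that list and 78.3% of the members. All 3 lines shared 140 members among their brightest, and 11 members were in no line's brightest, of which HAK5 and CRO1 carry a name. Outside the first 400 genes were 1 member in HFL1 (LOC4344574, at 816), 0 in 35S-15 and 5 in GR14. The 5 in GR14 were LOC4326757 at 8635, RCABP89 at 1442, LOC4327929 at 618, LOC4337447 at 491 and LOC4342395 at 470. A further 5 genes were among the brightest of every line and not of WT: LOC4329508, LOC4351317, LOC4331501, LOC9271122 and LOC4333610.

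The lines were compared with each other by limma on all 31792 probe sets, with Benjamini-Hochberg adjusted p under 0.05 as the threshold, since the WT arrays that chose the members do not enter these differences other than through the shared estimate of spread. Nearly all members that passed were lower in GR14, and the largest differences were those of LOC4326757 and of the light-harvesting protein RCABP89. Choosing on WT signal can favour this direction, which is therefore not given as a finding. A gene low in GR14 alone could be a member, but one raised in GR14 from a lower WT level could not. In HFL1 against GR14, 11 members were higher and 0 lower, where 3.92% and 2.79% of all tested probe sets were higher and lower. At an unadjusted p under 0.05 it was 35 members, or 18.5%, and 20.9% of tested probe sets. In 35S-15 against GR14, 11 members were higher and 1 lower, where 3.42% and 2.52% of tested probe sets were; at an unadjusted p under 0.05 it was 29 members, or 15.3%, and 19.5%. In either direction 5.82% of members and 6.71% of tested probe sets passed in HFL1 minus GR14, and 6.35% and 5.94% in 35S-15 minus GR14, so the members' share was close to the background. The median difference over the members was 0.03 and 0.12, against -0.02 and -0.02 over tested probe sets. Among the next 199 genes in the same order, 16 were higher and 4 lower in HFL1, and 16 higher and 1 lower in 35S-15. Both comparisons use the same GR14 arrays, so a low GR14 value enters both. The count of higher members in HFL1 was 7 without HFL1 array 1 and that of lower members 1 without 35S-15 array 2, and the count of higher members in 35S-15 was 7 without 35S-15 array 3. Without GR14 array 3, which had the widest actin, GAPDH and ubiquitin controls, 8 were higher in HFL1 and 8 in 35S-15.

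LOC4326757 showed the largest difference. It read 14.93, 15.29 and 14.35 in HFL1 seeds, 14.86, 15.27 and 14.65 in 35S-15 seeds and 11.21, 8.69 and 8.60 in GR14 seeds, against 14.05, 15.05 and 13.40 in WT seeds. GR14 lay far below the other 3 groups, and GR14 array 1 lay above the other GR14 arrays. The differences were 5.35 ± 0.58 in HFL1 minus GR14 (adjusted p = 1.00e-04) and 5.42 ± 0.58 in 35S-15 minus GR14 (adjusted p = 9.60e-05). Without GR14 array 1 they were 6.21 and 6.28. Both other probe sets of this gene went the same way, at 5.99 (adjusted p = 0.0154) and 5.54 (adjusted p = 8.04e-05) in HFL1 minus GR14 and at 5.86 (adjusted p = 0.0185) and 5.57 (adjusted p = 8.00e-05) in 35S-15 minus GR14.

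RCABP89 read 14.54, 14.77 and 14.62 in HFL1 seeds, 14.42, 14.70 and 14.97 in 35S-15 seeds and 12.63, 12.04 and 12.16 in GR14 seeds, against 14.16, 14.18 and 14.37 in WT seeds. GR14 lay wholly below every other group, and HFL1 and 35S-15 wholly above WT. The differences were 2.37 ± 0.17 in HFL1 minus GR14 (adjusted p = 3.90e-06) and 2.42 ± 0.17 in 35S-15 minus GR14 (adjusted p = 3.10e-06). Of the 11 other tested photosynthesis genes, with RCAA1 among them, 8 were higher and 1 was lower in both HFL1 and 35S-15 than in GR14. Examples are PORA, a protochlorophyllide reductase, with 2.84 and 2.51 (adjusted p = 1.00e-04 and 2.57e-04), and PSAG, a photosystem I subunit, with 2.15 and 2.15 (adjusted p = 1.16e-04 and 1.23e-04). The gene that was lower was LIR1, a light-regulated gene, with -2.14 and -2.46 (adjusted p = 3.78e-04 and 1.30e-04). The brighter members CAB2R and PETE did not pass, with differences of 0.11 ± 0.15 and 0.34 ± 0.15 for CAB2R and of 0.30 ± 0.15 and 0.41 ± 0.15 for PETE. Of the 6 green pericarp markers given above, 4 had their lowest mean in GR14, RCABP89 itself, RBCS-C, PSAG and PORA, while CAB2R and RBCS1 did not. How far the proportion of pericarp enters these values was not tested.

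PIP1-2, a plasma membrane water channel, read 14.76, 15.03 and 14.65 in HFL1 seeds, 14.81, 14.88 and 15.10 in 35S-15 seeds and 14.07, 14.26 and 14.09 in GR14 seeds, against 14.71, 14.61 and 14.45 in WT seeds. All GR14 arrays were below all others. The differences were 0.67 ± 0.14 in HFL1 minus GR14 (adjusted p = 0.00889) and 0.79 ± 0.14 in 35S-15 minus GR14 (adjusted p = 0.0032). Of the 50 other tested transport genes 11 were higher and 1 lower in HFL1 than in GR14, and 10 higher and 2 lower in 35S-15. PSAG, counted above among the photosynthesis genes, entered this list through a synonym; without it 10 were higher in HFL1 and 9 in 35S-15. They included the related channels PIP2-2 (1.84 and 1.83), PIP1-3 (1.90 and 1.95), PIP1-1 (0.83 and 0.96) and PIP2-4 (1.36 and 1.84), each past the threshold in both comparisons and picked here after the values were seen. The tonoplast channel TIP4-1 was lower in both, with -2.11 and -2.40 (adjusted p = 5.29e-04 and 2.11e-04).

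SAMDC, the S-adenosylmethionine decarboxylase of polyamine synthesis, read 14.41, 14.19 and 14.15 in HFL1 seeds, 14.34, 14.24 and 14.47 in 35S-15 seeds and 13.46, 13.73 and 13.68 in GR14 seeds, against 14.17, 14.53 and 14.02 in WT seeds. GR14 was again wholly below the rest. The differences were 0.63 ± 0.15 in HFL1 minus GR14 (adjusted p = 0.0222) and 0.72 ± 0.15 in 35S-15 minus GR14 (adjusted p = 0.0105). The HFL1 call was lost without GR14 array 1 or HFL1 array 1 (adjusted p up to 0.106). Its other, dim probe set did not pass, with 0.46 (adjusted p = 0.553) and 0.65 (adjusted p = 0.378).

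BIP1, with the values above, was higher in 35S-15 than in GR14, by 1.00 ± 0.24 (adjusted p = 0.0279). In HFL1 minus GR14 it was 0.65 ± 0.24 (adjusted p = 0.141). The 35S-15 call was lost without GR14 array 2 or 3 or without 35S-15 array 1 or 3 (adjusted p up to 0.105). Of the 42 other tested folding genes 4 were higher and 1 lower in HFL1 than in GR14, and 7 higher and 1 lower in 35S-15. The 7 included HSP81-1, a further Hsp90 gene just outside the limit, with 1.07 (adjusted p = 0.00812), and ERDJ3A and ERDJ3B, J-domain partners of BiP, with 2.25 (adjusted p = 0.00112) and 1.25 (adjusted p = 0.0203).

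A further 5 members known only by a LOC identifier passed in both comparisons besides LOC4326757. LOC4350455 was the steadiest within groups and read 14.40, 14.34 and 14.30 in HFL1 seeds, 14.56, 14.45 and 14.47 in 35S-15 seeds and 13.79, 13.69 and 13.62 in GR14 seeds, against 14.33, 14.29 and 14.20 in WT seeds. Its differences were 0.65 ± 0.11 in HFL1 minus GR14 (adjusted p = 0.00223) and 0.79 ± 0.11 in 35S-15 minus GR14 (adjusted p = 4.74e-04). LOC4342395 read 14.02, 14.59 and 14.38 in HFL1 seeds, 14.30, 14.40 and 15.00 in 35S-15 seeds and 13.69, 13.43 and 13.06 in GR14 seeds, against 14.41, 14.49 and 14.40 in WT seeds. Its differences were 0.93 ± 0.21 in HFL1 minus GR14 (adjusted p = 0.0154) and 1.17 ± 0.21 in 35S-15 minus GR14 (adjusted p = 0.00401), and its other probe set gave 1.93 (adjusted p = 0.00686) and 2.67 (adjusted p = 6.99e-04). GR14 lay below every other array for both genes. The HFL1 call of LOC4342395 was lost without GR14 array 3 or without HFL1 array 2 or 3 (adjusted p up to 0.0582).

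LOC4337447 read 14.32, 14.84 and 14.35 in HFL1 seeds, 13.99, 14.55 and 14.57 in 35S-15 seeds and 13.10, 13.40 and 13.53 in GR14 seeds, against 14.50, 13.68 and 14.12 in WT seeds, with differences of 1.16 ± 0.23 in HFL1 minus GR14 (adjusted p = 0.00717) and 1.03 ± 0.23 in 35S-15 minus GR14 (adjusted p = 0.0157). Its 35S-15 call was lost without GR14 array 1 or without 35S-15 array 2 or 3 (adjusted p up to 0.0657). LOC4339998 read 14.44, 14.72 and 14.08 in HFL1 seeds, 14.46, 14.41 and 14.52 in 35S-15 seeds and 13.65, 13.61 and 13.70 in GR14 seeds, against 14.31, 14.03 and 13.96 in WT seeds, with 0.76 ± 0.15 in HFL1 minus GR14 (adjusted p = 0.00885) and 0.81 ± 0.15 in 35S-15 minus GR14 (adjusted p = 0.00608). LOC4344899 averaged 14.75 ± 0.28 in HFL1, 14.89 ± 0.23 in 35S-15, 14.17 ± 0.16 in GR14 and 14.46 ± 0.11 in WT (SD, n = 3 each), with 0.58 ± 0.16 in HFL1 minus GR14 (adjusted p = 0.047) and 0.72 ± 0.16 in 35S-15 minus GR14 (adjusted p = 0.017). Its HFL1 call was the least secure, lost without any 1 of 10 of the 12 arrays, all but HFL1 array 3 and 35S-15 array 3 (adjusted p up to 0.144), and its 35S-15 call was lost without GR14 array 2 or 3 or 35S-15 array 3 (adjusted p up to 0.065).

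GF14F and ANT passed in HFL1 and not in 35S-15, and the direct comparison of these lines is given further on. GF14F read 14.35, 14.32 and 14.26 in HFL1 seeds, 14.21, 14.27 and 14.15 in 35S-15 seeds and 13.96, 13.87 and 13.78 in GR14 seeds, against 14.14, 14.18 and 14.14 in WT seeds. Its difference was 0.44 ± 0.10 in HFL1 minus GR14 (adjusted p = 0.022) and 0.34 ± 0.10 in 35S-15 minus GR14 (adjusted p = 0.0751). ANT read 14.11, 14.04 and 14.31 in HFL1 seeds, 13.97, 14.12 and 13.98 in 35S-15 seeds and 13.78, 13.47 and 13.77 in GR14 seeds, against 14.08, 14.27 and 14.21 in WT seeds, with 0.48 ± 0.13 (adjusted p = 0.037) and 0.35 ± 0.13 (adjusted p = 0.134). GR14 was lowest for both. Without GR14 array 2 or 3 or any 1 HFL1 array the GF14F call was lost (adjusted p up to 0.0951), and without GR14 array 1 or 2 or HFL1 array 1 or 3 that of ANT was (adjusted p up to 0.157).

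LOC4333749 and LOC4342129 passed in 35S-15 and not in HFL1. LOC4333749 was higher, by 0.58 ± 0.15 (adjusted p = 0.0316), a call lost without GR14 array 2 or 3, any 1 35S-15 array or HFL1 array 1 (adjusted p up to 0.131). LOC4342129 was the 1 member that was lower. It read 14.13, 13.90 and 14.33 in HFL1 seeds, 13.98, 13.84 and 13.71 in 35S-15 seeds and 14.34, 14.67 and 14.47 in GR14 seeds, against 14.19, 14.20 and 14.26 in WT seeds. All 35S-15 arrays were below all GR14 and WT arrays. The difference was -0.65 ± 0.14 (adjusted p = 0.0127), and without GR14 array 2 the adjusted p was 0.0644.

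**Figure D3:**
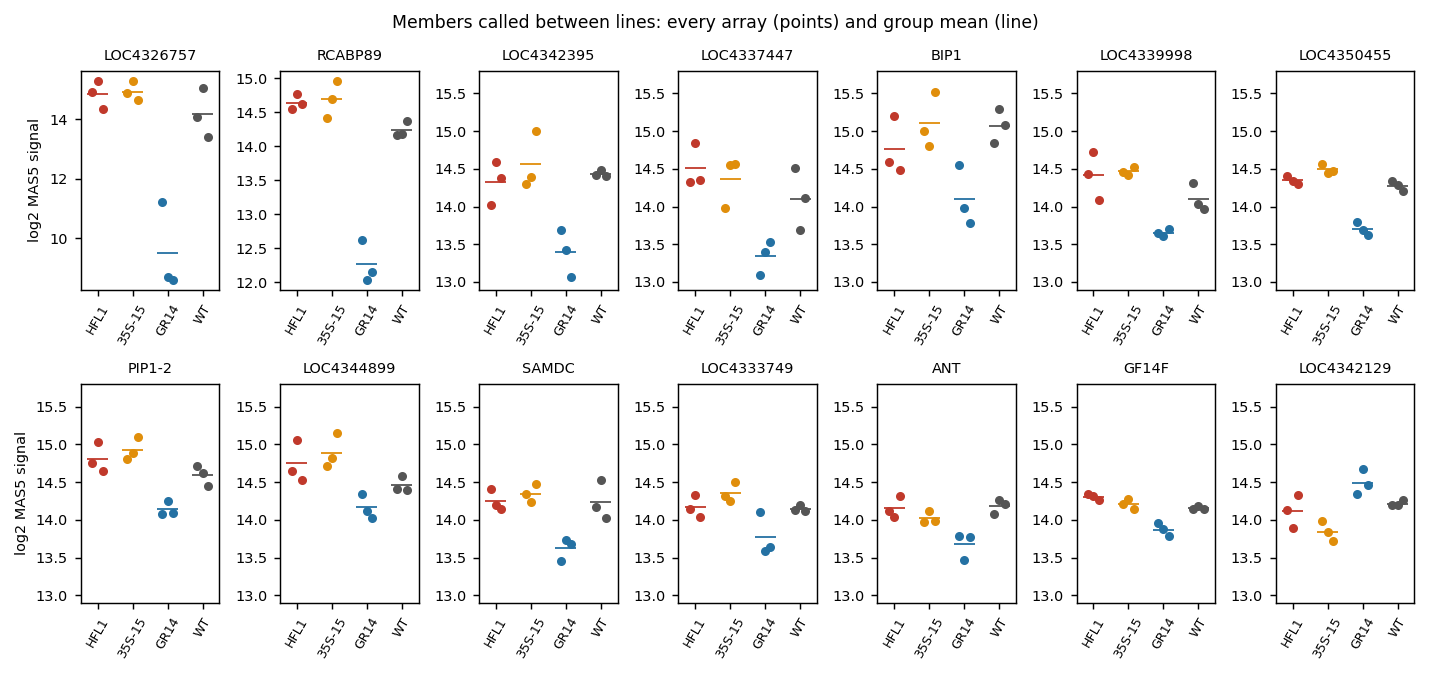
Log2 signal on every array (points) and group mean (line) of the 14 members that passed a test between lines, with HFL1, 35S-15, GR14 and WT from left to right. LOC4326757 and RCABP89 have axes of their own, and the other 12 share one. GR14 is the lowest group in 13 panels and the highest for LOC4342129.

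HFL1 and 35S-15 were close to each other. In HFL1 minus 35S-15, limma called 0 members higher and 0 lower, and 0.00315% of tested probe sets in each direction. At an unadjusted p under 0.05 it was 3 members, or 1.59%, against 4.46% of tested probe sets, and the smallest adjusted p of a member was 0.974. The members' differences ran from -1.40 for LOC4344574 to 0.45 for LOC4348110, with a median of -0.10 and a median SE of 0.149. The 95% interval lay within -1 and 1 for 182 of the 189, so a difference of 1 log2 unit lies outside the interval for these and not for the others. For GF14F the interval ran from -0.12 to 0.32, for ANT from -0.14 to 0.40, for BIP1 from -0.87 to 0.18 and for LOC4342129 from -0.02 to 0.57. LOC4344574 had the widest, from -3.03 to 0.23.

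**Figure D4:**
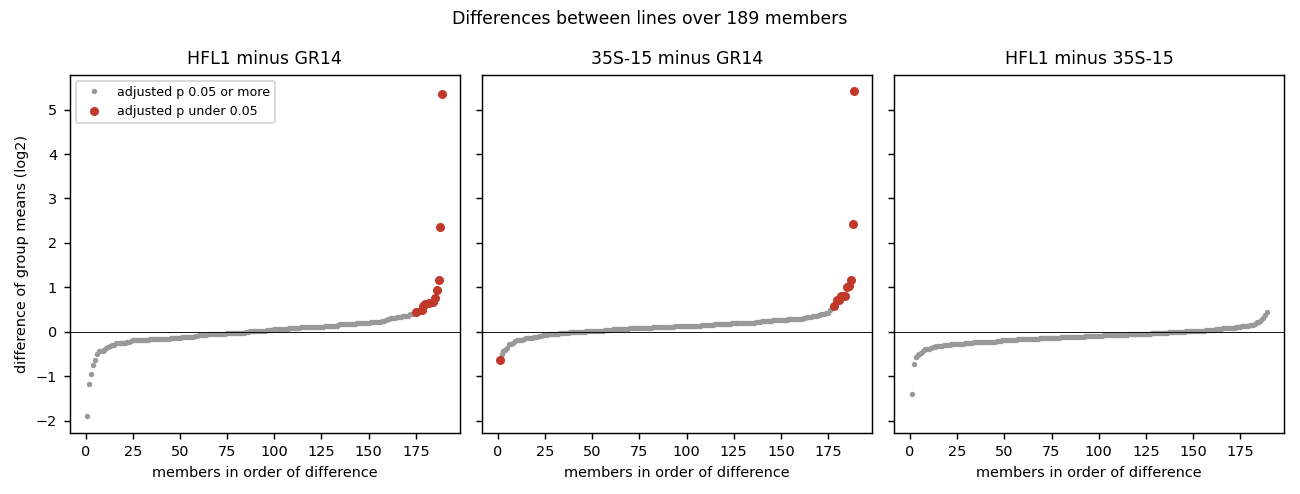
Differences of group means in log2 units for the 189 members, sorted within each panel, for HFL1 minus GR14, 35S-15 minus GR14 and HFL1 minus 35S-15, with red points at an adjusted p under 0.05. The red points sit at the upper end of the first 2 panels, with 1 at the lower end of the second, and the third panel has none.

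Set against WT without a test, 18 members lay wholly above the 3 WT arrays in HFL1 and 4 wholly below, where 7.4% and 5.52% of tested probe sets did. In 35S-15 it was 28 above and 4 below, with 6.21% and 4.88% of tested probe sets. In GR14 it was 9 above and 23 below, with 14% and 11% of tested probe sets. The median differences over the members were 0.03 in HFL1, 0.13 in 35S-15 and 0.01 in GR14, and all 3 were below 0 under quantile normalization and under median centring. They rest on single arrays: without 35S-15 array 3 the 35S-15 median was 0.04, without 35S-15 array 2 it was 0.22, without WT array 3 the HFL1 median was 0.01 and without WT array 2 it was 0.07, and the GR14 median was -0.02 without GR14 array 2 and 0.05 without GR14 array 3. Median centring of the arrays moved the median of all tested probe sets in 35S-15 to -0.14, against 0.01 as deposited, and the members' median to -0.02, which is above that of all tested probe sets in both.

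The differences from WT with no overlap of arrays that were largest in HFL1 were RCABP89 (0.41), PETE (0.33), LTP110-A (0.29) and AGPS2 (0.29) above, and HAK5 (-0.44), LOC4346409 (-0.33), OSK3 (-0.22) and LOC4343901 (-0.19) below. In 35S-15 they were PROLM25 (0.77), LOC4341135 (0.60), RAG2 (0.50) and LOC4339221 (0.50) above, and LOC4342129 (-0.37), LOC4336956 (-0.34), EF-1-beta (-0.21) and LOC4341707 (-0.16) below. In GR14 they were LOC4334518 (0.38), LOC4339221 (0.36), LOC4341274 (0.34) and LOC4350574 (0.31) above, and LOC4326757 (-4.67), RCABP89 (-1.96), LOC4342395 (-1.04) and BIP1 (-0.97) below.

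A few members varied widely within strains, and the 5 described here were picked after their values were seen. LOC4344574 read 14.16, 13.90 and 10.61 in HFL1 seeds, 14.38, 13.71 and 14.77 in 35S-15 seeds and 15.00, 15.44 and 13.94 in GR14 seeds, against 14.91, 14.64 and 13.27 in WT seeds. LOC4350789 read 14.10, 14.45 and 12.28 in HFL1 seeds, 14.14, 14.07 and 14.84 in 35S-15 seeds and 15.00, 15.02 and 14.35 in GR14 seeds, against 14.43, 14.57 and 13.40 in WT seeds. HFL1 array 3 and WT array 3 were the lowest of their groups for both. R1C-Prx read 14.62, 15.13 and 14.18 in HFL1 seeds, 15.05, 14.88 and 15.53 in 35S-15 seeds and 15.23, 15.33 and 14.65 in GR14 seeds, against 15.04, 15.00 and 14.03 in WT seeds, with the same arrays lowest. LOC4331947 and LOC4334398 had pooled SDs of 0.49 and 0.44, with their lowest values, 13.27 and 14.26, in HFL1 array 3. Of the 6 embryo and aleurone markers, 5 were lowest in array 3 in HFL1 (not RAB16C), 5 in GR14 (not VP1) and 5 in WT (not RAB16D), and 0 in 35S-15. RAB16D is counted here although its mean was below the array median in HFL1 (5.24), GR14 (5.49) and WT (5.09). Among these markers VP1 alone passed a test between lines. It was higher in GR14, with -1.89 in HFL1 minus GR14 (limma adjusted p = 6.78e-04) and -1.50 in 35S-15 minus GR14 (limma adjusted p = 0.00398). Emp1, a late-embryogenesis protein, read 13.31, 13.997 and 12.12 in HFL1 seeds, 14.55, 14.11 and 14.86 in 35S-15 seeds and 14.93, 14.91 and 13.57 in GR14 seeds, against 14.51, 14.93 and 12.41 in WT seeds. RAB21, a dehydrin, read 12.20, 13.93 and 11.01 in HFL1 seeds, 13.86, 13.71 and 14.69 in 35S-15 seeds and 15.01, 14.69 and 12.85 in GR14 seeds, against 14.11, 14.85 and 10.84 in WT seeds. The summed signal of the 6 markers was 8078 in HFL1 array 3 and 9211 in WT array 3. The summed endosperm markers were also lowest of their groups in these arrays, at 107112 and 87614.5. How much embryo and aleurone each sample held, and its part in these 5 members, was not tested. None of the 5 passed a test between lines.

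**Figure D5:**
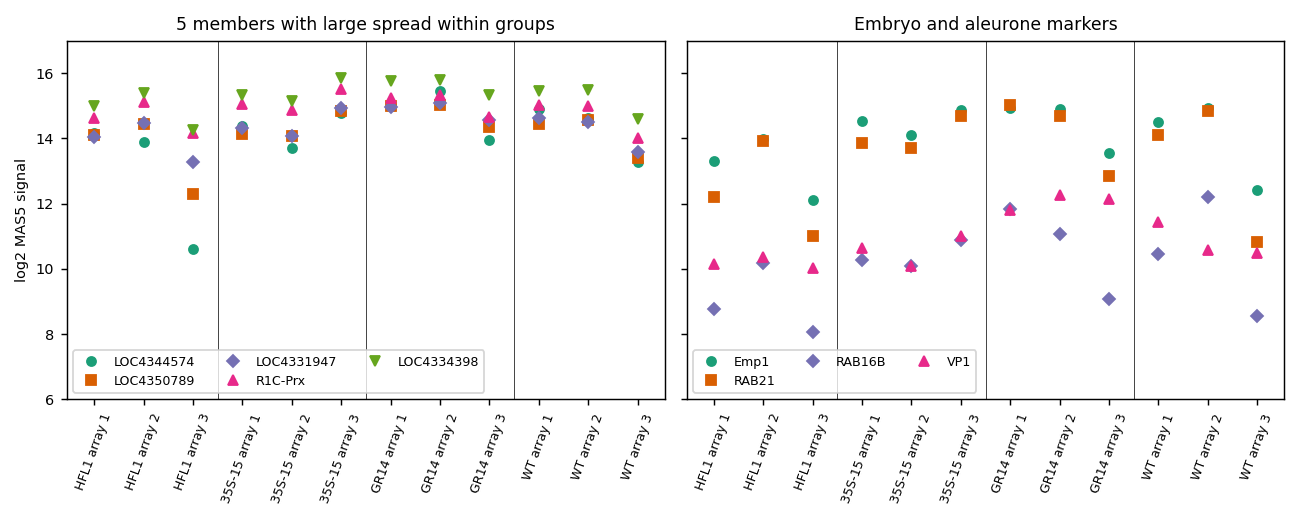
Log2 signal by array, with HFL1, 35S-15, GR14 and WT from left to right, for 5 members with large spread within groups (left) and 4 embryo and aleurone markers that are not members (right). HFL1 array 3 and WT array 3 are the lowest of their groups for the 5 members and for Emp1, RAB21, RAB16B and VP1. The markers RAB16C and RAB16D are not shown and differ. RAB16C was lowest of its group in HFL1 array 2 (7.71), and RAB16D in WT array 1 (2.58).

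The members' genes were short, with a median length of 2389 bases against 3526 over all array genes, by the RefSeq table of assembly ASM3414082v1. In that table's gene order, a total of 7 pairs of successive members lay within 5 steps of each other. They include RAG2 with RA5, both seed albumins, RA5 with LOC4342729 as its direct neighbour, HSP81-2 with HSP81-3, and CAT-A with BIP1 as direct neighbours. The same count was not made for other sets of genes, so these pairs are not read as clustering of the members.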

How the data were processed

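RNA from developing seeds of 4 rice strains was hybridised to 12 arrays, 3 per strain. The deposited values are MAS5 signal intensity on a linear scale, per the submitters' processing notes. The sources used here give neither its version nor its settings. Each column, trimmed by 2% at both ends, averaged about 500.1, so the arrays had been scaled. No detection calls or saturation flags were used, and the number of arrays limits the precision.

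Of 57381 probe sets, 22436 had exactly 1 gene (17905 genes) by an array annotation table updated through RefSeq gene identifiers. Tests covered 31792 probe sets, those brighter than the array median on 3 or more of 12 arrays; 123 AFFX and 64 RPTR controls did not enter. Intensity was taken to log2 with no further normalization, and limma 3.58.1 under R 4.3.3 fitted all 4 groups together (trend = TRUE in eBayes), with two-sided p-values adjusted by Benjamini-Hochberg at 0.05. It was tested on simulated data. Errors of levels are SDs over 3 arrays and those of differences SEs of the fit. Array numbers follow accession order and pair no samples.

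The members and gene lists were chosen with earlier results of these data known. Members were named by rule: the 10 brightest, the 8 largest called differences per direction and line pair, up to 5 per list, the 4 largest differences from WT without overlap, the 3 nearest the limit and the 4 widest and 4 narrowest ranges. GLUD1, RINO1, R1C-Prx, CRO1, TIP2-2, SAM1, RPL7A-1, LOC4344899, LOC4333749, LOC4331947, LOC4334398, LOC4348110, LOC4327929, GF14F, ANT and all genes named that are not members were chosen after their values were seen. The 200 were taken before the families were dropped. Planned promoter and protein comparisons were not made here, and no coordinates are given because the files name no build. Alternatives were quantile normalization, median centring, other filters, log2(signal + 50), no _x_at or _s_at probe sets, 1 probe set per gene, no trend, array weights, fewer groups in the fit, other choices of members and of WT arrays, and leaving out each array.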

Additional observations from a re-analysis of the deposited data

How the results depend on the processing

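The counts in the comparisons of lines depended on the variance model and on scaling. In HFL1 minus GR14 the 11 higher members became 7 under median centring and 6 without an intensity trend, and ran from 7 to 11 when each array was left out. The 0 lower members became 1 with array weights and ran from 0 to 1. In 35S-15 minus GR14 the 11 higher members became 7 without an intensity trend and ran from 7 to 11, and the 1 lower member from 0 to 1. The causes were not tested. HFL1 minus 35S-15 stayed at 0 in either direction under every alternative tried. LOC4326757, LOC4339998, LOC4350455, PIP1-2 and RCABP89 passed under every alternative in both comparisons with GR14, and so did LOC4337447 in HFL1 minus GR14 and LOC4342395 in 35S-15 minus GR14. LOC4326757 could not be tried without _s_at probe sets.

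The members' median difference from WT was above 0 in all 3 lines as deposited and turned sign in all 3 under both other scalings. Under quantile normalization it was -0.031 in HFL1, -0.0261 in 35S-15 and -0.082 in GR14, and under median centring -0.043, -0.0218 and -0.062 in the same order. When arrays were left out, the 35S-15 median ran from 0.04 to 0.22. The GR14 median ran from -0.02 to 0.05 and the HFL1 median from 0.01 to 0.07. The members shared with the brightest of each line ran from 162 to 168 (HFL1), 165 to 168 (35S-15) and 142 to 152 (GR14). Choosing members from WT array 1 alone kept 163, from WT arrays 2 and 3 alone 176, from quantile-normalized values 188 and from mean linear signal 187; leaving out arrays and line lists chosen otherwise for these medians and shares were added after seeing the data. No paired analysis was possible because the titles carry no replicate number shared between groups. Signals near the top of the scale may be compressed, and saturation was not recorded in the values used.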
